A study of Drosophila melanogaster with 2 samples.

Results

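The genes described here are mbf1 and 6 genes for transcription factors that are known to bind its protein or that share its bridging role with the TATA-binding protein: Tbp, ftz-f1, apt, Jra, kay and crc. They were found by gene symbol. A probe set of the array was taken when the platform annotation gave it 1 symbol and that symbol was one of these 7, out of 10844 genes with such a probe set. This gave 8 probe sets, because kay had 2 and each of the other genes had 1. No probe set annotated with several genes named one of them.

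The study set out to find genes that depend on MBF1 in Drosophila melanogaster embryos, and it measured total RNA of 2 genotypes on 1 Affymetrix array each, 2 arrays in all. One genotype was homozygous for a mutation in mbf1, and the labels do not name the allele or say which part of the gene it changes. The other was yw, a strain with mutations in the body colour gene yellow and the eye colour gene white, which served as the control. Per the labels, embryos of both were kept on apple juice plates for 16 h after egg laying at 25 °C. The labels give neither the number of embryos behind each RNA nor whether the mbf1 stock carried the yellow and white mutations too. With no replicates there is no error between samples, no test between genotypes was possible, and every difference below is one between these 2 arrays.

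MBF1, multiprotein bridging factor 1, is a small conserved coactivator that does not itself recognise a DNA element. It holds a sequence-specific transcription factor with one surface and the TATA-binding protein with another, and so helps to bring the general transcription machinery to the promoters which that factor binds. It was isolated from the silkworm Bombyx mori as a cofactor of the nuclear receptor FTZ-F1. In budding yeast its counterpart works with the bZIP activator Gcn4, whose Drosophila relative is encoded by crc. In Drosophila it is known to form complexes with Apontic, a factor needed for tracheae and the nervous system, and with Jun.

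Signals are in the arbitrary intensity units of the deposited table after the mbf1 array was brought to the level of the yw array. A signal under 17.7, the 40th percentile of both arrays, was treated as not above background and is called under the floor. A probe set counted as measured if either array showed it above the floor. By this rule 6 of the 8 probe sets were measured, and all 6 were above the floor on both arrays. The remaining pair, the ftz-f1 probe set and the second kay probe set, were under it on both. All ratios are relative to the bulk of the genes. Without scaling a log2 ratio would be higher by 0.55, and with hybridization controls setting the scale by 0.21. This holds for genes whose signals stay well above the floor, and a negative ratio smaller than these in size then turns positive. The floor is 21.4 and 19.1 on those scales, so genes near it can shift less. Tbp was at 0.61 without scaling and at 0.19 with it.

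Most markers of adults and adult males gave strong signals for both genotypes, whose label is embryo. Of 16 such markers with a probe set, 15 were above the floor on each array, with a median signal of 600.3 on the mbf1 array and 680.4 on the yw array and a summed signal of 14378 and 17064.5. The yolk protein genes were the dim ones. Yp1 was under the floor on both arrays, Yp2 had 26.3 on the mbf1 array and 25.4 on the yw array, and Yp3 had 36.0 and 31.1. Of 10 segmentation genes of the early embryo, 7 were above the floor on the mbf1 array and 5 on the yw array. Over all probe sets with 1 gene symbol, 60.5% were above it on each array. The summed signals of the 10 genes were 467.5 and 369.2, of which hry alone gave 270.3 and 198.8. Of 7 genes listed here for later embryonic tissues, not all of them confined to late stages, 2 and 3 were above the floor. Their summed signals were 128.2 and 143.0. Not all adult markers were at a similar level on both arrays. For flight muscle, fln and Act88F had log2 ratios of -1.34, or 2.53-fold lower, and -0.84, against 0.72 for the sperm chromatin gene Mst77F, -0.57 for the seminal fluid gene Acp62F and 0.38 for Acp26Ab. Among the segmentation genes kni and eve were at least 1.45-fold and at least 1.42-fold higher, hb was at -0.53 and hry (hairy) at 0.44. On the list for later tissues twi was at 0.32, pros at 0.02 and wor at least 1.05-fold lower. The wor ratio reached -1.12 under another way of processing. The neuron marker elav, the glia marker repo and the tracheal marker btl were under the floor on both arrays. The part of other tissues or stages in the values below was not tested.

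The mbf1 transcript was far lower on the mbf1 array, and it was the only member with a difference of 2-fold or more. Its signal was 22.1 on the mbf1 array and 478.7 on the yw array. The first value is 1.25 times the floor, so little above background was left to measure. The log2 ratio was -4.44, which leaves 4.62% of the yw signal. In RNA of whole animals, fewer cells of a type and less RNA per cell cannot be told apart.

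The difference does not rest on how the arrays were scaled, since the position of the gene within each array also differed. The mbf1 probe set stood at the 46.2th percentile of all probe sets on the mbf1 array and at the 96.3th percentile on the yw array. None of the 8116 measured probe sets with 1 gene symbol had a lower ratio. Among the 500 measured probe sets of nearest mean signal, the middle 95% of log2 ratios ran from -0.68 to 0.77, and 0 of the 500 were as low as mbf1. Only 1 probe set reads the gene, and the sources used here do not give its position relative to the mutation.

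**Figure D1:**
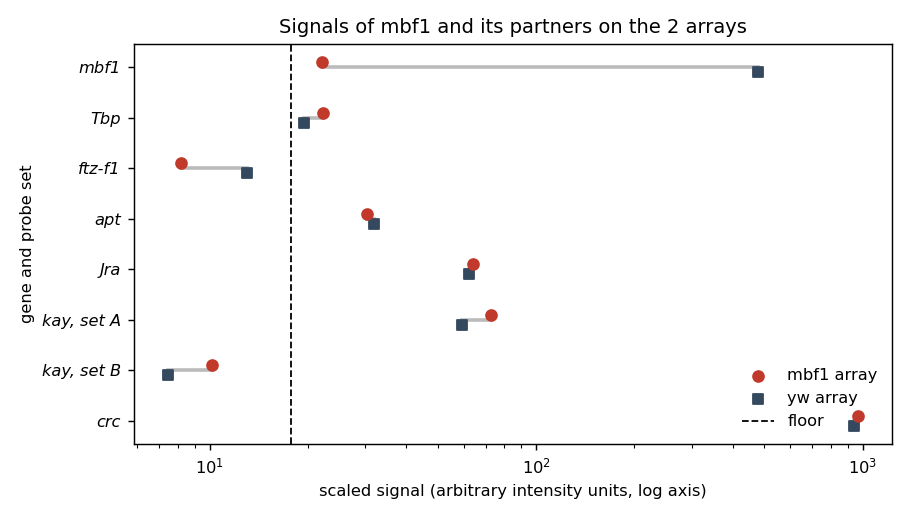
Scaled signal (x axis, intensity units, log scale) of each probe set (rows) on the mbf1 array (red circles) and the yw array (dark squares), with the floor at 17.7 as a dashed line; set A of kay is the brighter and set B the dimmer of its probe sets. The mbf1 points lie far apart, at 22.1 and 478.7, while those of Tbp, apt, Jra, crc and set A of kay nearly coincide and both points of ftz-f1 and of set B of kay lie left of the floor.

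The 3 genes closest to mbf1 in brightness on the yw array were about as bright on the mbf1 array. These 3 genes of nearest yw signal were dj, which encodes a sperm protein, Cyp6d5, a cytochrome P450, and Sec61alpha, a subunit of the protein translocation channel. Their signals on the mbf1 array were 573.5, 523.6 and 498.3, and their log2 ratios were 0.25, 0.13 and 0.06. Over these 2 arrays, the 5 genes with log2 ratios nearest that of mbf1, all with both signals above the floor, were Acp65Aa at -4.05, Cpr92F at -3.11, CG4375 at -2.68, Cyp6a9 at -2.54 and CG8736 at -2.28. Acp65Aa and Cpr92F encode cuticle proteins. Other genes that were bright on the yw array were thus dim on the mbf1 array, as Acp65Aa was with 19.0 on the mbf1 array and 314.7 on the yw array.

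The nearest measured genes around mbf1 on its chromosome arm did not share its low ratio, and neither directly adjacent gene was measured. In the gene order of the Release 6 assembly, the 5 nearest measured genes on either side, which lay within 9 genes before and 14 genes after mbf1, had log2 ratios between -0.85 and 0.84 with a median of -0.02. None of the 10 was at least 2-fold apart, though without scaling Smn and l(3)73Ah passed 2-fold, at 1.33 and 1.39. That count is not particular to the neighbours, since 1.62% of all measured genes were at least 2-fold lower and 1.51% at least 2-fold higher. Without scaling 797 of 7883 measured genes were at least 2-fold higher. Directly after mbf1 lies nxf2, a gene that was under the floor on both arrays, with 1.14 and 5.59. The next one, Smn, which encodes the survival motor neuron protein, had signals of 57.8 on the mbf1 array and 33.7 on the yw array, a log2 ratio of 0.78. On the other side UQCR-6.4L has no probe set of its own, and Mipp1, which encodes an inositol phosphate phosphatase, had signals of 143.0 and 192.3, a ratio of -0.43. Of the others, l(3)73Ah had the highest ratio, at 0.84, and dsx-c73A the lowest, at -0.85, while the eye pigment transporter gene st was at 0.28.

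**Figure D2:**
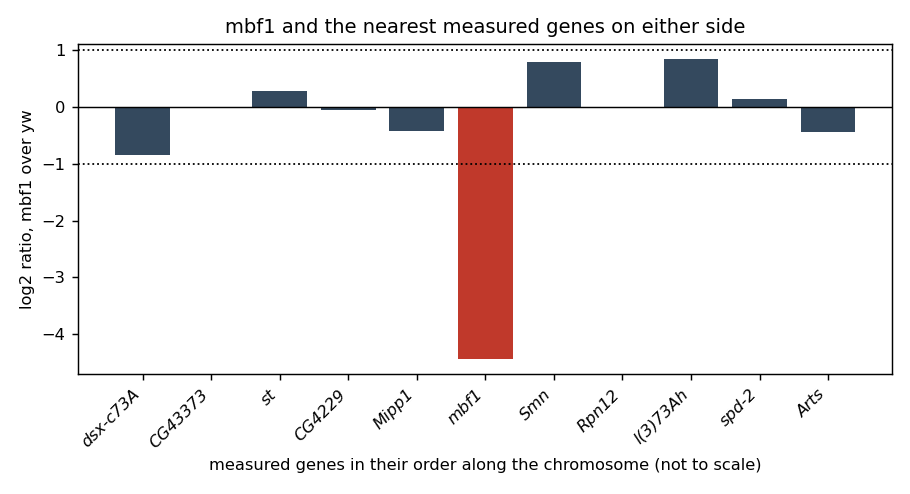
Log2 ratio, mbf1 over yw array (y axis) for mbf1 (red bar) and the 5 nearest measured genes on either side of it (dark bars), in chromosome order and not to scale; dotted lines mark 2-fold. The bar of mbf1 reaches -4.44, and all 10 neighbours lie between -0.85 and 0.84.

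Tbp encodes the TATA-binding protein, the other end of the bridge. Its signal was 22.3 on the mbf1 array and 19.5 on the yw array, a log2 ratio of 0.19 or 1.14-fold. Both values lay just above the floor. For measured probe sets of like brightness the middle 95% of ratios ran from -0.86 to 0.87. A difference well short of 2-fold in Tbp could therefore not have been told from that spread. Signals under the floor were raised to it, which narrows the range this near the floor, so larger differences could be hidden too.

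Transcripts of proteins that work around the TATA-binding protein were read for some genes. Of the 6 genes for Tbp, its relatives Trf and Trf2, both TFIIA subunits and TFIIB, 4 were measured, and 0 were at least 2-fold apart. TfIIA-S, the small subunit gene of TFIIA, had signals of 166.1 on the mbf1 array and 189.8 on the yw array, a log2 ratio of -0.19 that turned to 0.02 on the scale of the hybridization controls. Trf2 was at 0.14 and TfIIA-L at 0.08, and Trf and TfIIB were under the floor on both arrays. The median of the 4 was 0.11, against -0.0011 over the 7675 measured genes.

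Of the TFIID subunits, the factors that bind the TATA-binding protein at promoters, 12 had a probe set with Tbp included. Of these 8 were measured, 4 with positive and 4 with negative ratios, and 0 were at least 2-fold apart. That split depended on scaling, since on unscaled values and on the scale of the hybridization controls 9 were measured and all 9 were positive. Taf9 had a ratio of 0.34, with signals of 41.0 and 32.4, and Taf10 one of 0.32. Taf13 was at least 1.24-fold higher, with 22.1 on the mbf1 array and a yw signal under the floor, and it was at 0.88 with the 25th percentile as floor. Taf6 had the lowest ratio, -0.20. The list median was 0.05.

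The partner that gave MBF1 its discovery could not be compared. The ftz-f1 probe set had signals of 8.20 on the mbf1 array and 13.0 on the yw array, both under the floor, so no fold is given. FTZ-F1 is an orphan nuclear receptor that acts with the homeodomain protein Ftz in segmentation, and later, when the ecdysone titre falls, it prepares cells for the next response to the hormone. Dimness was common among its relatives, while 7675 of all 10844 genes with a probe set were measured. Of 19 nuclear receptor genes with a probe set 13 were under the floor on both arrays, among them EcR and usp, whose products together form the ecdysone receptor.

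Of the 6 measured nuclear receptor genes, 0 were at least 2-fold apart, and their median log2 ratio was 0.06. For Hr51 the ratio is a bound, and it passed 2-fold with the 25th percentile as floor, at -1.01. The gene svp, for a relative of the vertebrate COUP-TF receptors, had signals of 28.3 on the mbf1 array and 43.8 on the yw array, a ratio of -0.63, though its other probe set gave -0.09. The gap gene kni was at least 1.45-fold higher, with 25.6 on the mbf1 array and a yw signal under the floor. Hr78 was at 0.41 and ERR, the estrogen-related receptor gene that drives carbohydrate metabolism in larvae, at -0.23.

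Genes listed around FTZ-F1, not all of them its partners or targets, gave mostly negative ratios, and 0 were called at 2-fold with the 40th percentile as floor. Of 10 with a probe set 5 were measured, 4 of them with negative ratios. The list median was -0.40, against -0.0011 over all measured genes. On the scale of the hybridization controls 3 of 6 were negative, and on unscaled values 1 of 6. The lowest was tai, which encodes a coactivator of the ecdysone receptor, at least 1.92-fold lower with a yw signal of 34.1. Its dimmer probe set gave a bound of at least 1.11-fold lower. With the 25th percentile as floor both passed 2-fold, the brighter at -1.21 and the dimmer with -1.15 as a bound. Edg84A, a cuticle gene that FTZ-F1 is known to bind, had signals of 29.3 on the mbf1 array and 39.8 on the yw array, a ratio of -0.44. Blimp-1, whose product is a repressor that sets the timing of ftz-f1, was at -0.40 and the enzyme gene Ddc at 0.22. The gene of the segmentation partner, ftz, chosen here after its values were seen, had signals of 33.0 and 37.3, a ratio of -0.18. The list median depended on the processing. It was -0.0028 with the 25th percentile as floor, and 0.21 without scaling between the arrays, against a median of 0.50 over all genes.

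Apontic, the product of apt, is a DNA-binding factor needed for tracheal cell migration and head development, and Drosophila MBF1 is known to act as its coactivator. The apt signal was 30.3 on the mbf1 array and 31.8 on the yw array. The log2 ratio of -0.07 turned positive without scaling, at 0.48, and with scaling on hybridization controls, at 0.15. At its brightness the middle 95% of ratios ran from -0.97 to 1.01. It was the only negative ratio among the 5 measured partner probe sets.

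Genes linked to apt gave little to compare. Of 6 with a probe set 3 were measured, and CycE and hh, which are reported as direct targets of Apontic, were under the floor on both arrays together with btl, the receptor gene of migrating tracheal cells. The POU domain gene vvl, also a tracheal factor, had a log2 ratio of -0.37, with signals of 30.2 on the mbf1 array and 39.1 on the yw array. The bHLH partner gene tgo was at 0.27, and the border cell factor gene slbo was at least 1.08-fold lower. None was at least 2-fold apart.

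Jra and kay encode Jun and Fos, which pair through their leucine zippers to form the AP-1 factor. Jra had signals of 64.2 on the mbf1 array and 62.4 on the yw array, a log2 ratio of 0.04. The brighter probe set of kay had 72.6 and 59.2, a ratio of 0.30 or 1.23-fold, the largest ratio in size among the partners. Both genes lay well inside the middle 95% of probe sets of like brightness, which ran from -0.74 to 0.82 for Jra and from -0.71 to 0.86 for kay. The second kay probe set was under the floor on both arrays, with 10.2 and 7.47, so it gave no second reading of the gene.

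The kinases upstream of AP-1 and the genes it induces did not pass 2-fold in either direction. Of 10 with a probe set 7 were measured, 4 with negative and 3 with positive ratios, and the median was -0.18, which turned to 0.38 on unscaled values and to 0.04 when hybridization controls set the scale. The kinase genes msn and slpr were at least 1.74-fold and at least 1.57-fold lower, with mbf1 signals under the floor and yw signals of 30.9 and 27.8. With the 25th percentile as floor slpr passed 2-fold, with -1.64 as a bound. Among the induced genes, puc, whose phosphatase shuts the JNK pathway down again, had signals of 53.7 on the mbf1 array and 43.6 on the yw array, a log2 ratio of 0.30. The induced gene scaf, for a serine protease homologue of embryonic dorsal closure, was at -0.55, and its dimmer probe set at 0.38. The readings of scaf thus differed in sign.

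The crc gene encodes the Drosophila relative of ATF4, a bZIP factor that is translated when amino acids run short or when unfolded proteins load the endoplasmic reticulum. Its probe set had signals of 967.4 on the mbf1 array and 941.3 on the yw array, a log2 ratio of 0.04. It stood at the 98.1th percentile of probe sets on the mbf1 array and at the 98.0th on the yw array. Its closeness in level is therefore read far above background, unlike that of Tbp and apt. The middle 95% of ratios at its brightness ran from -0.93 to 0.73.

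Only 7 of the 14 genes listed around crc had a probe set with 1 symbol, and 6 were measured. One of them, Nmdmc, was 3.97-fold lower, with signals of 29.8 on the mbf1 array and 118.4 on the yw array. It encodes a mitochondrial enzyme of folate metabolism that ATF4 is known to induce. The others were less than 2-fold apart. Pepck1, the gluconeogenic enzyme gene, was at 0.63 with signals of 916.1 and 592.0 (1.18 without scaling), trbl at 0.34, Sesn at least 1.08-fold higher and aay, for an enzyme of serine synthesis, at -0.18. The list median was 0.09.

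Jra, kay and crc belong to the bZIP family, and most of its measured genes had positive ratios, some of them bounds. Of 19 family genes with a probe set 14 were measured, with 11 positive and 3 negative ratios and 0 at least 2-fold apart. Their median was 0.16, against -0.0011 over all measured genes. On unscaled values all 14 were positive, and on the scale of the hybridization controls 12 of 14. Irbp18 was at least 1.38-fold higher with an mbf1 signal of 24.5 and a yw signal under the floor. With the 25th percentile as floor it passed 2-fold, with 1.46 as a bound. REPTOR-BP, which encodes the bZIP partner of the TOR-regulated factor REPTOR, had signals of 151.6 on the mbf1 array and 112.1 on the yw array, a log2 ratio of 0.44. Atf6, for a factor of the unfolded protein response, was at 0.37 and maf-S, for the small Maf partner of Cnc, at 0.31.

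MBF1 is also reported to bind the messenger RNA of the Polycomb group gene E(z) and to keep the exonuclease Pacman, the product of pcm, from degrading it. E(z) had signals of 23.1 on the mbf1 array and 21.2 on the yw array, a log2 ratio of 0.13, both near the floor. pcm had 42.7 and 60.8, a ratio of -0.51. Without scaling between the arrays the pcm ratio was 0.04, beside 0.50 for the median of all genes.

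**Figure D3:**
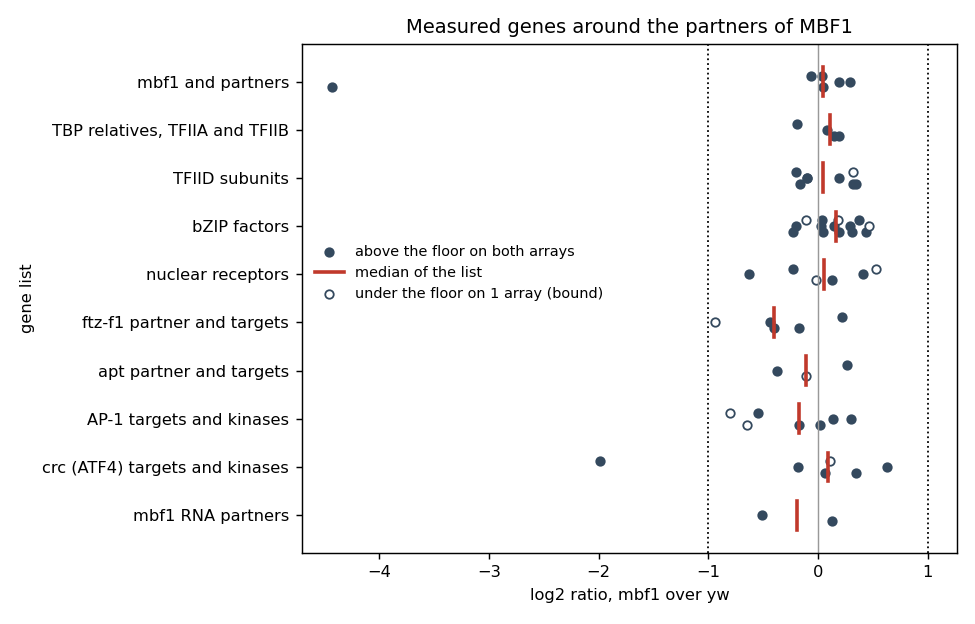
Log2 ratio, mbf1 over yw array (x axis) for each measured gene of mbf1 and its partners and of the 9 lists around them (rows); filled points had both signals above the floor, open points 1 signal under it so that the ratio is a bound, red bars are list medians and dotted lines mark 2-fold. Beside mbf1 at -4.44, Nmdmc at -1.99 is the only point beyond 2-fold.

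The measured partners of MBF1 differed between the arrays by at most 1.23-fold. Of the 6 measured member probe sets 1 was at least 2-fold lower, mbf1 itself, and 0 were at least 2-fold higher, where 1.68% of the 8116 measured probe sets were at least 2-fold lower and 1.49% at least 2-fold higher. Over the 9 lists around the members, which share some genes with them, Nmdmc alone passed 2-fold, where 1.62% of the measured genes were at least 2-fold lower and 1.51% at least 2-fold higher. The partner ratios ran from -0.07 for apt to 0.30 for kay, with a median of 0.04. This range is narrow but not particular to them, since 35.7% of all measured probe sets lay within it and 84.8% differed by less than 1.5-fold.

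A single log2 ratio carries an SD of 0.38 when judged from 260 genes with a pair of probe sets that both arrays showed above the floor, and this leaves out error between samples. All 5 partner ratios were smaller than that SD in size. Taken against the partner median, which no common scaling of an array can change, mbf1 was lower by 4.48 on the log2 scale.

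**Figure D4:**
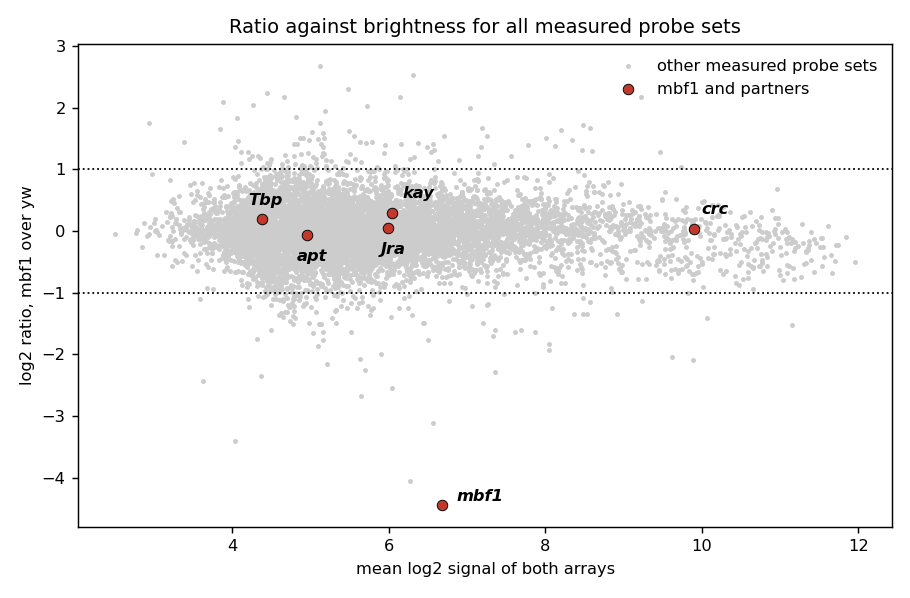
Log2 ratio, mbf1 over yw array (y axis) against the mean log2 signal of both arrays (x axis) for the 8116 measured probe sets (grey) and the 6 measured probe sets of mbf1 and its partners (red, named); dotted lines mark 2-fold. mbf1 is the lowest point, at -4.44, and the 5 partners lie between -0.07 and 0.30 inside the grey band.

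**Figure D5:**
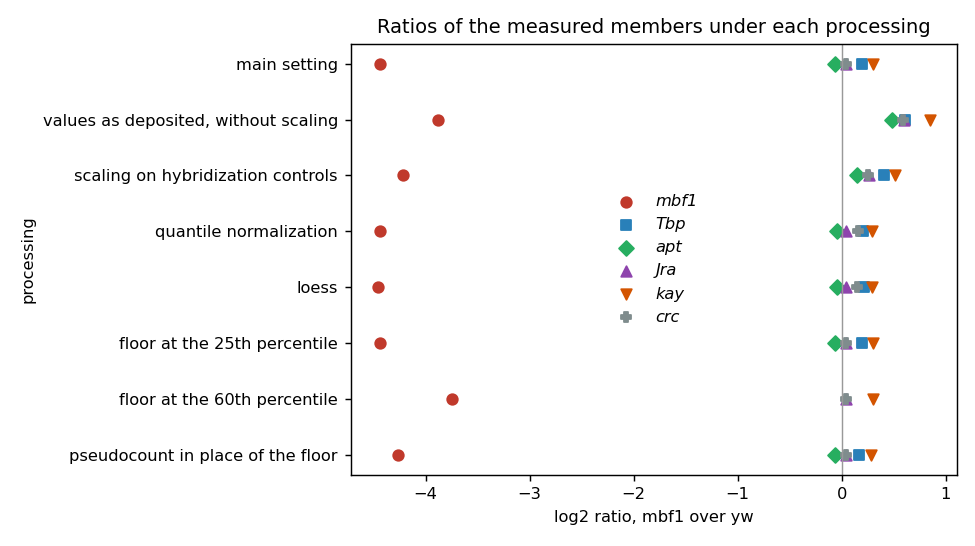
Log2 ratio, mbf1 over yw array (x axis) of mbf1 and the 5 measured partners (symbols) under each way of processing the values (rows). mbf1 lies between -4.46 and -3.74 in the 7 alternatives and no partner ratio exceeds 0.85 in size. Without scaling all points move right, Tbp by less than the others.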

How the data were processed

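The deposited intensities are 1 linear signal per probe set and array, and MAS5 is named per the submitters' processing notes, with no version or target level given in the sources used here. That table held 14010 probe sets, 44 of them controls, of which 12444 had 1 gene symbol, 327 several and 1239 none in GEO's platform annotation. Symbols were checked by gene identifier for 12394 probe sets against a Release 6 gene table, which changed 0 and also gave the gene order. It served for names and neighbours only, so no coordinates are given. The level of the arrays differed as deposited, with medians of 36.9 on the mbf1 array and 25.4 on the yw array.

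The mbf1 array was divided by 1.47, the median ratio (0.55 on the log2 scale) over probe sets in the brighter part of each array, above its median. Values under the 40th percentile of the pooled signals were raised to it before ratios were taken, and a ratio from or to that floor is a bound. Members are given by all probe sets, and other genes by the probe set of highest mean signal. A gene was called at 2-fold. The procedure was tested on simulated data with changes put only into bright probe sets. Its recovery of changes in dimmer ones, such as those of Tbp and apt, was not tested. With 1 array per genotype no p-values were computed.

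Members and lists were chosen with earlier results of these data known. From each list were named the genes at least 2-fold apart and up to 4 more with the largest ratios in size. All measured neighbours count as named, as do the 5 genes nearest mbf1 in ratio and the 3 nearest in yw signal. Python 3.11.15, numpy 2.4.6, pandas 2.3.3 and statsmodels 0.14.6 were used. The scanner and fluidics records were not used.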

Additional observations from a re-analysis of the deposited data

How the results depend on the processing

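The mbf1 log2 ratio stayed negative in all 7 alternatives, between -4.46 and -3.74. It was -3.89 on the values as deposited, where the whole mbf1 array is brighter, and -3.74 with the 60th percentile as floor, above its signal on the mbf1 array, which makes the ratio a bound. The counts of 1 member probe set at least 2-fold lower and 0 higher were the same in these alternatives and with thresholds of 1.5-fold and 3-fold. Over all measured genes the 2-fold counts did change. They were 124 lower and 116 higher of 7675 in the main setting, and 34 and 797 of 7883 without scaling. With the 25th percentile as floor they were 256 and 279 of 9255. The members hold 8 probe sets, too few to show such changes. Of 33 values of the 5 measured partner probe sets under alternatives, 29 moved by less than the spread (robust SD) of the 500 probe sets nearest in signal. The 4 that moved more were those of apt, Jra, kay and crc without scaling, at 0.48, 0.59, 0.85 and 0.59, against a median of 0.50 over all genes. With the 25th percentile as floor ftz-f1 became measurable, with -0.55 as a bound since its mbf1 signal stayed under that floor. The second kay probe set had 0.19 as a bound, since its yw signal stayed under it. With that floor Hr51, with -1.01 as a bound, and REPTOR, with 1.17 as a bound, passed 2-fold as well. Measured from the partner median, mbf1 lay between -4.60 and -3.79. Of 72 list medians under alternatives 7 moved by more than the SD of their members, and of 601 values of other named genes 97 moved, with 0 reversals among genes at least 2-fold apart. Smaller ratios did change sign with the scaling. Of the named genes with negative ratios, 30 of 44 turned positive on unscaled values, 16 of 44 on the scale of the hybridization controls, 4 of 46 with quantile normalization and 3 of 46 with loess, and 0 positive ratios turned negative in these. No paired analysis was possible because each genotype has 1 array. Low signal over background limits statements on ftz-f1 and, near the floor, on Tbp.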
